A study of Mus musculus with 54 samples.

Results

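Collagen genes encode the alpha chains of the collagens, and 41 of them were followed here across mouse embryonic stem cell (mESC) lines that carry different forms of EZH2. Members were all protein-coding genes whose symbol is Col, a number, a and a number, without Col4a1, Col4a2 and Col2a1. The rule uses gene names and no measured value. The table held 55401 genes, 21897 of them protein-coding, and all 41 members were in it. Counts came from RNA-seq of 48 libraries, 3 in each of 16 groups: 8 cell lines, each kept undifferentiated (mESC) or differentiated briefly with all-trans retinoic acid after withdrawal of 2i and LIF (ATRA). 2i and LIF are the kinase inhibitors and the cytokine that hold mouse stem cells in the naive state.

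The parental line has both Ezh2 alleles (its library names carry flfl). All other 7 lines share the loss of 1 Ezh2 allele. The heterozygote (het) has nothing added, the line called WT has wild-type EZH2 added, and the remaining 5 lines have an added EZH2 with 1 substituted residue: A677T, R679C, K634E, K563E or A733T. A677T, R679C, K634E and K563E are taken as Weaver syndrome variants and A733T as the growth restriction-associated variant, from general knowledge of these variants, because the labels do not sort them. Which promoter drives the added EZH2, whether each line is 1 clone and whether the 3 libraries of a group came from separate cultures is not stated in the labels, so p-values measure the spread between these libraries, which may be technical.

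EZH2 is the enzyme of the PRC2 complex, which places methyl groups on lysine 27 of histone H3 and holds many developmental genes silent in stem cells. Collagen chains assemble in threes into a triple helix in the endoplasmic reticulum, after hydroxylation of proline and lysine, and are secreted as the main fibres and sheets of the extracellular matrix. Fibrillar chains (types I, III, V, XI, XXIV and XXVII) build the fibres of skin, bone and cartilage, the fibril-associated chains decorate them, type VI makes beaded filaments, type IV makes basement membranes, and types XIII, XVII, XXIII and XXV span the cell membrane. Multiplexins (types XV and XVIII) sit in basement membranes, and the end of the type XVIII chain is released as endostatin.

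The promoter sequences of 6 members carry the main patterns below and are shown for that reason. Each is the 250 bases before the gene's start in the RefSeq table for GRCm38.p6, written 5′ to 3′ on the gene's strand. RefSeq promoter entries were matched by symbol for 33 of the 41 members. The first pair belongs to genes that were higher after ATRA in all 8 lines, and capitals mark the core motif of retinoic acid receptors, AGGTCA or its reverse complement TGACCT, searched on both strands.
Col6a5 (chr9:105960644-105960893, minus strand): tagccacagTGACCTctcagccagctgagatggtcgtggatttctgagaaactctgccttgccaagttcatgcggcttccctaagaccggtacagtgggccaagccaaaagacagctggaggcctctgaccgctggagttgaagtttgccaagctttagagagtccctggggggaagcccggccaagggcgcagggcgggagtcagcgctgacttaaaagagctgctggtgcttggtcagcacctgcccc
Col18a1 (chr10:77166531-77166780, minus strand): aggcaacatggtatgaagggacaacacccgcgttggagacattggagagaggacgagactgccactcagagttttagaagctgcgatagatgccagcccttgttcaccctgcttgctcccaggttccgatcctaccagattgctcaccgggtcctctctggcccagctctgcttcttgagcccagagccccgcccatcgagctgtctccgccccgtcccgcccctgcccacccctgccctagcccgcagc
The Col6a5 window has 1 match and the Col18a1 window has none. The motif was found in 8 of 36 member windows (22.2%) and in 14.0% of all 32851 windows of the same length. A match is a description of the letters only. The next set belongs to genes that were lower in the Weaver lines as mESC, and capitals mark CpG dinucleotides, which cluster in the CpG islands of many promoters.
Col5a3 (chr9:20815068-20815317, minus strand): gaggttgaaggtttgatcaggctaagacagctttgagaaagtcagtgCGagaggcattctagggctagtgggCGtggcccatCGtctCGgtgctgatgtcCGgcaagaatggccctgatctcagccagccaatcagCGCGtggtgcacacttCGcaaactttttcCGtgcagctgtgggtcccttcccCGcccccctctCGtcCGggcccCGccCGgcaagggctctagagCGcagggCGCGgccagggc
Col13a1 (chr10:61979109-61979358, minus strand): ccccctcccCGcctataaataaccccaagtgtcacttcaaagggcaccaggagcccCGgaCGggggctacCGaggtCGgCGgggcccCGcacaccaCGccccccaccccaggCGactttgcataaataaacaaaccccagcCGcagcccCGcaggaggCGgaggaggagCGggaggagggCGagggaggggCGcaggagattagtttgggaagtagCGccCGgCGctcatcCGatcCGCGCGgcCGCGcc
Col5a1 (chr2:27886175-27886424, plus strand): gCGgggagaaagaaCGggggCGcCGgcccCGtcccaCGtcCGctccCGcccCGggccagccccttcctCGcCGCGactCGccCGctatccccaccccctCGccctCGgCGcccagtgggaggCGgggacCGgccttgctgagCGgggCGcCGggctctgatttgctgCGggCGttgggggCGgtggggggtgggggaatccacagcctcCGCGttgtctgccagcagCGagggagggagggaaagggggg
Col7a1 (chr9:108953336-108953585, plus strand): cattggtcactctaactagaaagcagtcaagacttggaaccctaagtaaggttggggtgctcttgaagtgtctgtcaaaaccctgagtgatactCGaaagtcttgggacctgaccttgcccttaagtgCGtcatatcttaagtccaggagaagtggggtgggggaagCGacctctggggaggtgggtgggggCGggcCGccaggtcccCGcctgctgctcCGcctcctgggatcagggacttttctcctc
These windows hold 17, 24, 28 and 7 CpGs, in that order. The median over the 8 windows of members lower in the Weaver lines was 14.5 (2 to 28), beside 6 over all windows of the table and 7 over the 7 windows of members that were tested in mESC and not called. Windows with no RefSeq promoter entry were those of Col12a1, Col14a1, Col1a1, Col22a1, Col26a1, Col4a3, Col5a2 and Col9a3.

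Library totals lay between 15361598 and 29614420 counts in mESC and between 15612700 and 31338825 after ATRA. Ezh2 was counted in every library, with group means of 280 to 568 CPM (counts per 1000000 counts of the scaled library) in mESC and 238 to 417 CPM after ATRA, and counts of the added and the cells' own gene cannot be told apart. In mESC the means were 301 CPM in the parental line, 280 CPM in het, 440 CPM in WT, 495 to 568 CPM in the Weaver lines and 360 CPM in A733T, and the part of these differences in the results below was not tested. All 8 stem cell markers, Pou5f1 and Nanog among them, were at 1 CPM or more in both states, and their summed level in WT was 6376 to 6499 CPM in mESC and 1753 to 1992 CPM after ATRA. The dependence of counts on gene GC content varied between libraries, and mESC A677T replicate 3 and ATRA K634E replicate 3 stood farthest apart. For the Weaver mean against WT, counts of members called are therefore also given with that GC trend taken out and without these libraries. In bulk RNA, fewer cells that express a gene and less RNA per cell cannot be told apart.

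In WT mESC the family was dominated by Col18a1. Levels between genes are compared as CPM per kilobase of exon, as the mean ± SD of 3 libraries. Col18a1 stood at 29.1 ± 2.26 CPM per kilobase, followed by the cartilage type IX chain gene Col9a2 at 3.54 ± 0.498 and the fibrillar chain gene Col5a1 at 1.03 ± 0.0265. Col13a1 (0.539 ± 0.131) and Col7a1 (0.425 ± 0.0700) came next and did not differ beyond their spread. After ATRA the order in WT was Col18a1 at 104 ± 10.5 CPM per kilobase, Col6a5 at 3.51 ± 0.186, Col13a1 at 1.77 ± 0.370 and Col9a2 at 1.34 ± 0.166, and the last pair differed by about their spread. A mean of 1 CPM or more was reached by 11 members in WT mESC and by 17 after ATRA. Col19a1 had 0 counts in all 24 mESC libraries, which at the shallowest library allows up to 0.195 CPM, for counting error only. The low-count filter passed 17 members in mESC and 29 after ATRA, and the other 12 stayed untested in both states, with no group mean above 0.472 CPM.

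Removal of 2i and LIF with ATRA raised most of the collagen genes that could be tested. In WT, 23 of 29 members were higher after ATRA and 1 was lower at an adjusted p under 0.05 (edgeR's quasi-likelihood test, Benjamini-Hochberg over all genes tested), which is 82.8% of the tested members beside 59.0% of all genes. The median log2 change was 1.69 for the members and 0.02 over all genes. The same 29 members gave 19 higher and 1 lower in the parental line (background 55.2%), 19 and 1 in het (56.8%), 23 and 0 in A677T (55.3%), 22 and 0 in R679C (57.5%), 23 and 1 in K634E (57.4%), 22 and 0 in K563E (57.8%) and 21 and 1 in A733T (55.8%). Higher calls in all 8 lines were made for 14 members, and the single member lower in any line was Col9a2. The share of all genes called higher in all 8 lines was not computed, so the count of 14 has no background beside it. Members that passed the filter only after ATRA were favoured to be higher there, so these counts describe the tested members and not the family. They were Col1a2, Col4a5, Col6a1, Col6a4, Col6a6, Col8a2, Col12a1, Col14a1, Col15a1, Col16a1, Col23a1 and Col26a1.

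The type VI chains, which form beaded filaments around cells, gave 5 higher calls of 5 tested in WT. Of these, Col6a1, Col6a4 and Col6a6 passed the filter only after ATRA, which favoured a higher call in advance. Col6a5 was at 0.456, 0.859 and 0.775 CPM in the 3 WT mESC libraries and at 35.0, 32.3 and 31.8 CPM after ATRA. The groups lay far apart, and the log2 change was 5.56 ± 0.16 (SE, adjusted p = 5.48e-31). Col6a5 stood at 30.8 CPM or more in each of the ATRA libraries of the Weaver lines, with a median of 32.5 CPM. Its neighbours Col6a6 and Col6a4 lie on the same strand of chromosome 9, at gaps of 27917 and 28810 bp. Both were at 0.843 CPM or less in every WT library but were also called higher, by 2.23 and 1.59 on the log2 scale. These calls depended on single libraries, as given below. Col6a2 went from 0.355, 0.191 and 0.443 CPM to 3.72, 4.65 and 2.62 CPM, with no overlap (log2 change 3.49 ± 0.36, adjusted p = 1.56e-11). Col6a1, its neighbour on chromosome 10, rose by 2.76 ± 0.70 on the log2 scale from a level of 0.111 CPM or less.

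Col18a1 was at 213, 186 and 214 CPM in WT mESC and at 789, 750 and 646 CPM after ATRA. No mESC library of any line reached 250 CPM and no ATRA library fell below 469 CPM. The log2 change in WT was 1.85 ± 0.19 (adjusted p = 1.94e-10), and the smallest and largest changes over the 8 lines were 1.81 ± 0.19 in the parental line and 2.65 ± 0.19 in A733T. Col15a1, the other multiplexin, was counted once over the 3 WT mESC libraries and 25 times over the 3 ATRA libraries, a ratio of 22.1 (95% interval 3.62 to 909, counting error only).

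Among the fibrillar chains, 7 of 8 tested members were higher after ATRA in WT and none was lower. Of the higher members, Col1a2 passed the filter only after ATRA. Col1a1, the main chain of type I collagen, was at 0.659, 0.620 and 0.554 CPM in mESC and at 1.89, 2.53 and 2.36 CPM after ATRA, without overlap (log2 change 1.89 ± 0.29, adjusted p = 3.49e-07). Its partner chain gene Col1a2 had 3 counts over the WT mESC libraries and 107 after ATRA, a ratio of 31.6 (95% interval 10.5 to 156), and stood at 1.67, 1.77 and 1.40 CPM after ATRA. Col11a2 and Col5a2, minor chains of fibrils, rose by 1.69 ± 0.26 and 1.56 ± 0.38. Col5a3, Col27a1 and Col11a1 rose by 0.67, 0.56 and 0.42. These smaller calls depended on single libraries: the call was lost in 1 of 6 fits that left out a library for Col5a3 (without ATRA WT replicate 1), in 4 of 6 for Col27a1 (without mESC WT replicate 1 or 2 or ATRA WT replicate 1 or 3) and in 2 of 6 for Col11a1 (without mESC WT replicate 3 or ATRA WT replicate 1), with adjusted p up to 0.0686, 0.116 and 0.219. Col5a1 was not called in WT.

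The fibril-associated chains did not move as a block in WT, with 4 of 7 tested members higher, 1 lower and 2 not called. Of the higher members, Col12a1, Col14a1 and Col16a1 passed the filter only after ATRA. Col9a2 went from 10.5, 9.68 and 12.7 CPM in mESC to 4.15, 4.65 and 3.63 CPM after ATRA. Every ATRA library was below every mESC library, and the level fell by 1.39 ± 0.25 on the log2 scale (adjusted p = 1.08e-05). Col9a2 was called lower in 5 of the 8 lines. Col12a1, Col14a1 and Col16a1, all under 0.5 CPM in mESC, were higher, by 2.05 and 1.63 on the log2 scale for the last pair and from 3 to 23 counts over the 3 libraries for Col12a1 (ratio 6.79, 95% interval 2.05 to 35.3), and Col22a1 rose by 0.87. The calls of Col12a1 (without ATRA WT replicate 2, adjusted p = 0.0618) and Col22a1 (without mESC WT replicate 1 or ATRA WT replicate 1, up to 0.138) were each lost when such a library was left out.

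Of the membrane-spanning chains, Col13a1 was called and Col17a1 and Col23a1 were not. Col13a1 went from 2.28, 2.00 and 3.16 CPM to 10.04, 7.66 and 6.73 CPM in WT, with no overlap (log2 change 1.73 ± 0.24, adjusted p = 3.5e-08). Col8a2, a short chain of hexagonal networks, rose by 3.07 ± 0.40, and Col7a1, the chain of anchoring fibrils under the epidermis, rose by 0.61 ± 0.20 with overlapping libraries. The X-linked basement membrane chain gene Col4a5 went from 0.101, 0.0954 and 0.111 CPM to 0.971, 0.762 and 0.656 CPM (log2 change 2.89 ± 0.55, adjusted p = 1.41e-05). Its head-to-head partner Col4a6, whose gene lies 1308 bp away, did not pass the filter. Col26a1 rose by 2.06 ± 0.53. The calls of Col6a4 (without mESC WT replicate 2, adjusted p = 0.0598) and Col6a6 (without mESC WT replicate 2 or 3 or ATRA WT replicate 1, up to 0.1001), at 1.59 and 2.23 in the full data, were each lost without such a library.

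**Figure D1:**
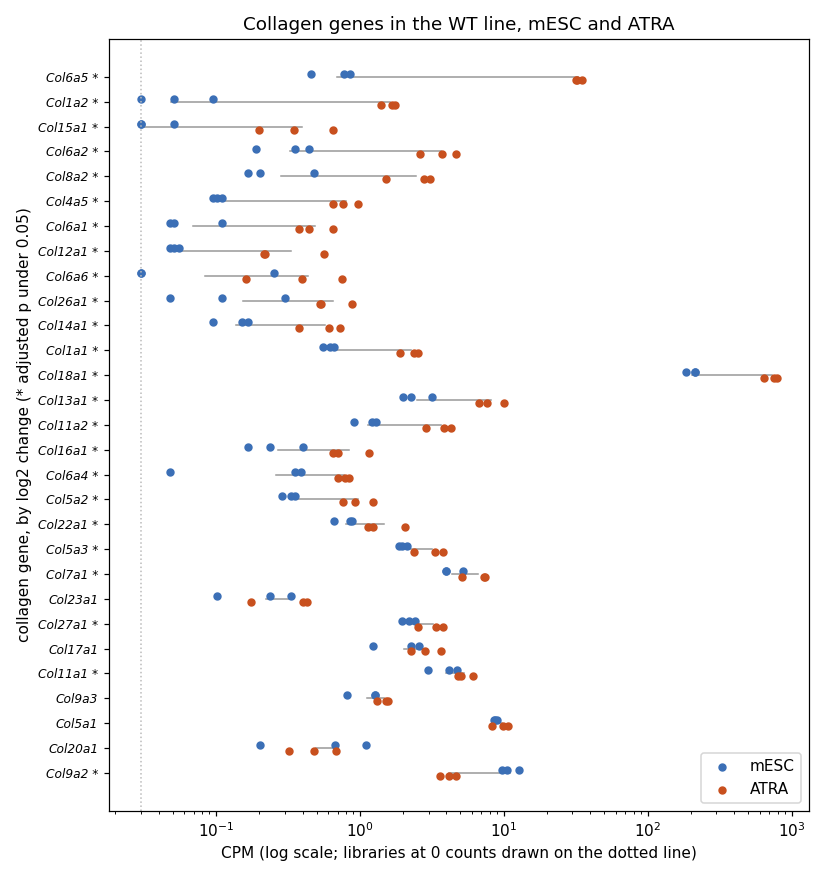
Level of 29 collagen genes in the WT line in CPM on a log axis, with 1 point per library (blue mESC, orange ATRA), a grey line between the group means, libraries with 0 counts on the dotted line, and an asterisk where the adjusted p was under 0.05. Col18a1 is highest in both states, Col6a5 moves from under 1 CPM to over 30 CPM, and Col9a2 is the called member that moves down.

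As mESC, the Weaver lines had less RNA of many collagen genes than WT. Over the mean of the 4 Weaver lines, 0 of 17 tested members were higher and 10 were lower at an adjusted p under 0.05, 58.8% of the members tested beside 44.4% of all genes, with a median log2 difference of -0.77 for the members and -0.0047 over all genes. The single lines gave 1 higher and 11 lower in A677T (background 44.6%), 0 and 7 in R679C (23.7%), 1 and 6 in K634E (29.3%) and 1 and 7 in K563E (34.5%). These comparisons share the 3 WT libraries. In total 12 of the 17 members were below WT in all 4 lines, none was above in all 4, and Col5a3, Col7a1, Col9a2 and Col9a3 were called lower in each of them. The shares of all genes that met these conditions were not computed, so these counts describe the members only. The summed CPM of all members except Col18a1 was 41.0 to 47.8 in the WT libraries and 15.0 to 31.4 in the Weaver libraries, which do not overlap.

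Fibrillar chains gave 5 lower calls of 7 tested. Col5a3, a type V chain, was at 2.13, 1.96 and 1.88 CPM in the WT libraries and at 0.0622, 0.781 and 1.30 CPM (lowest, median and highest) over the 12 Weaver libraries. The highest Weaver library was below the lowest WT library, and the log2 difference was -1.80 ± 0.21 (SE, adjusted p = 1.78e-07). The A677T libraries were lowest, at 0.0622, 0.291 and 0.193 CPM. Col5a1 was at 8.52, 8.97 and 8.75 CPM in WT and at 1.54, 5.93 and 7.37 CPM over the Weaver libraries, again without overlap (log2 difference -0.77 ± 0.13, adjusted p = 4.84e-05). Its A677T libraries, at 2.99, 3.88 and 1.54 CPM, lay below every library of the other 7 lines. Col1a1 was at 0.659, 0.620 and 0.554 CPM in WT and at 0.0485, 0.246 and 0.554 CPM in the Weaver libraries, which met at 1 R679C library (log2 difference -1.34 ± 0.32, adjusted p = 0.00156). Col11a2 and Col27a1 were lower by -1.01 ± 0.29 and -0.72 ± 0.15, with overlapping libraries. Col5a2 and Col11a1 were not called over the 4 lines, but Col5a2 was higher in A677T, at 1.31, 0.777 and 0.578 CPM against 0.355, 0.286 and 0.332 CPM in WT (log2 difference 1.45 ± 0.42, adjusted p = 0.00693).

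Both tested type IX chain genes, whose products coat cartilage fibrils, were lower. Col9a2 was at 10.5, 9.68 and 12.7 CPM in WT and at 2.696, 3.69 and 7.82 CPM over the Weaver libraries (log2 difference -1.34 ± 0.18, adjusted p = 1.95e-06). Col9a3 was at 1.27, 0.811 and 1.27 CPM in WT and at 0.0642, 0.333 and 0.773 CPM over the Weaver libraries (log2 difference -1.60 ± 0.28, adjusted p = 6.3e-05). Both genes had every Weaver library below every WT library. Exons of Col9a3 overlap those of Tcfl5 on the opposite strand over 6.07% of their length, and the library method does not mark strand, so reads there cannot be assigned. The remaining fibril-associated members, Col20a1 and Col22a1, were not called.

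Col7a1 was at 3.95, 3.96 and 5.20 CPM in WT and at 1.71, 2.29 and 2.62 CPM over the Weaver libraries, without overlap (log2 difference -0.97 ± 0.14, adjusted p = 3.79e-06). The 4 lines differed little in this gene, from -0.86 ± 0.18 in R679C to -1.06 ± 0.19 in K634E. Both tested membrane-spanning members were lower. Col13a1 was at 2.28, 2.00 and 3.16 CPM in WT and at 0.578, 1.11 and 2.39 CPM over the Weaver libraries, which overlap through 1 K634E library (log2 difference -1.13 ± 0.22, adjusted p = 0.000149). Col17a1, a hemidesmosome collagen of epithelia, was lower by -0.94 ± 0.25, also with overlap. Leaving out mESC WT replicate 1 took Col17a1 to -0.72 (adjusted p = 0.0574), and leaving out mESC WT replicate 2 took Col11a2 to -0.90 (adjusted p = 0.0502).

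The member with the highest level did not follow. Col18a1 was at 213, 186 and 214 CPM in WT and at 140, 200 and 247 CPM over the Weaver libraries (log2 difference -0.04 ± 0.14, adjusted p = 0.846). Neither tested type VI chain was lower over the 4 lines. Col6a5 was at 1.14, 1.37 and 1.78 CPM in K634E and at 1.04, 1.55 and 1.36 CPM in K563E, against 0.456, 0.859 and 0.775 CPM in WT. Both lines were above every WT library, with log2 differences of 1.04 ± 0.34 (adjusted p = 0.023) and 0.92 ± 0.34 (adjusted p = 0.0388).

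**Figure D2:**
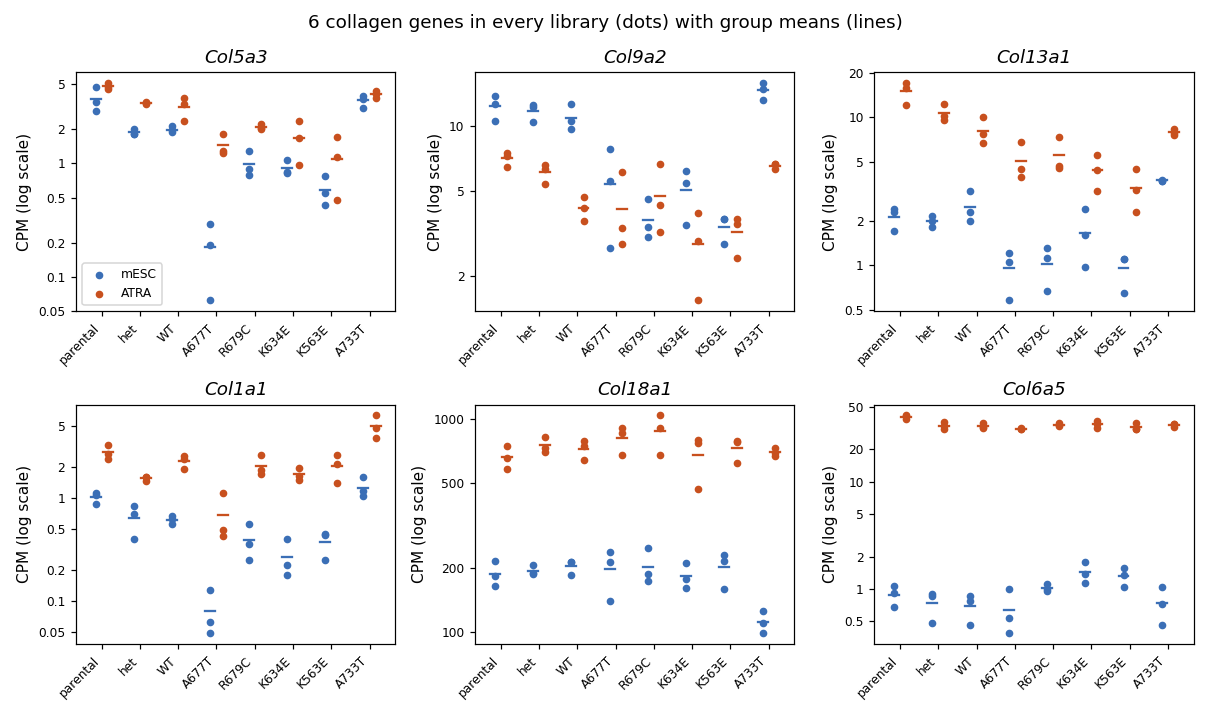
Level of Col5a3, Col9a2, Col13a1, Col1a1, Col18a1 and Col6a5 in each of the 48 libraries, in CPM on a log axis, by line and state. In mESC the Weaver lines lie below WT for Col5a3 and Col9a2 without overlap, while Col18a1 in A733T, at 99.0 to 125 CPM, lies below the other lines.

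GC content moved with these differences. Over 10502 genes above 4 CPM, the Spearman correlation of exon GC with the log2 difference between Weaver lines and WT in mESC was -0.65, given as a description across genes, which are not independent replicates. The 10 lower members had a median exon GC of 59.3%, beside 52.3% in the 7 members not called and 49.9% in all genes tested. With the GC trend taken out in each library, 8 of the 10 members stayed lower and the members' median moved from -0.77 to -0.53. Of all 15830 genes tested, 3048 were then lower and 2770 higher, beside 3629 and 3395 as fitted. Col11a2 (-0.63, adjusted p = 0.0881) and Col27a1 (-0.40, adjusted p = 0.0723) lost their calls, and Col18a1 turned to 0.30 and was called higher. Without mESC A677T replicate 3 and ATRA K634E replicate 3, 11 of 18 tested members were lower in mESC and none was higher. Of all 16220 genes tested in that fit, 3996 were lower and 3027 higher.

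**Figure D3:**
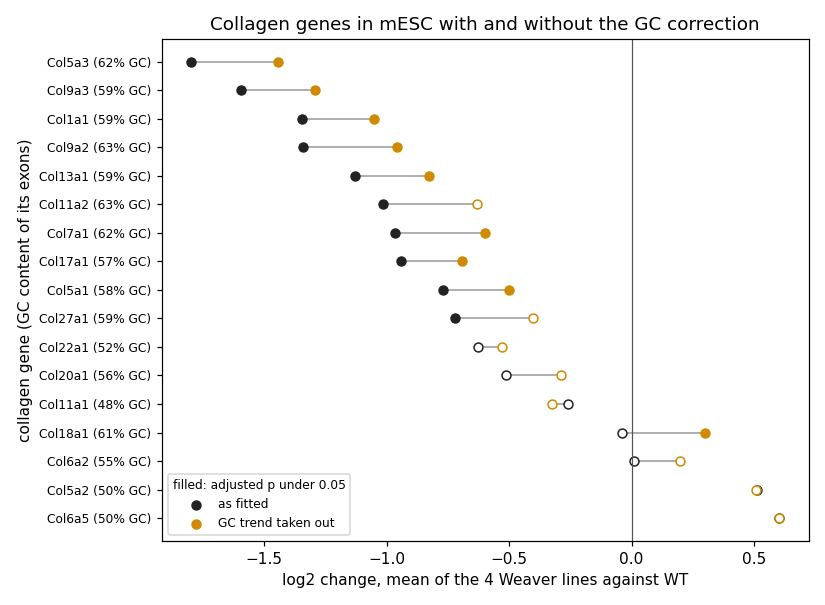
Log2 difference between the mean of the 4 Weaver lines and WT in mESC for the 17 tested collagen genes, as fitted (black) and with the GC trend taken out (orange). Col5a3 and Col9a3 stay lowest, and Col18a1 moves from -0.04 to 0.30.

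Marker sums of other cell types differed between the groups too, some lower and some higher in the Weaver lines. The summed level of 15 fibroblast or feeder cell markers was 18.2 to 21.1 CPM in WT mESC and 8.83 to 15.2 CPM in the Weaver libraries. In WT 5 of the 15 reached 1 CPM, and Postn, Dcn, Lum, Twist2, Fap and S100a4 were at 0 in all 3 WT libraries. The summed level of 12 markers of primitive, parietal or visceral endoderm was 194 to 210 CPM for WT against 92.0 to 129 CPM for the Weaver libraries, with 5 of 12 at 1 CPM or more and Afp and Ttr at 0 in WT. Most of that sum came from Lama1 (122 CPM in WT) and Lamb1 (74.1 CPM), and over the list 3 of 6 tested markers were called lower and 2 higher. The 9 chondrocyte or osteoblast markers summed to 10.3 to 11.4 CPM in WT, against 6.03 to 10.1 CPM for the Weaver libraries. The 8 mesoderm markers summed to 76.6 to 81.5 CPM in WT but 79.3 to 125 CPM over the Weaver libraries. Neuroectoderm markers (245 to 268 CPM in WT, 206 to 302 CPM in the Weaver libraries) and neural crest markers (27.3 to 34.5 CPM and 19.3 to 32.0 CPM) overlapped. Their part in the collagen differences was not tested.

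After ATRA, lower collagen genes in the Weaver lines again outnumbered higher ones. Over the mean of the 4 lines, 0 of 29 were higher and 9 lower (31.0% beside 20.5% of all genes), with a median log2 difference of -0.41 for the members and -0.0021 over all genes. The single lines gave 1 higher and 10 lower in A677T (background 19.4%), 0 and 2 in R679C (10.3%), 0 and 3 in K634E (15.0%) and 1 and 6 in K563E (20.5%), so that the shares in R679C (6.90%) and K634E (10.3%) were not above the background. In total 13 members were below WT in all 4 lines and 2 were above. Lower calls in both states were made for 5 members: Col1a1, Col5a1, Col5a3, Col13a1 and Col17a1. The shares of all genes for these joint counts were not computed, so the counts describe the members only.

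Col17a1 was at 3.67, 2.85 and 2.27 CPM in WT and at 1.03, 1.57 and 2.13 CPM (lowest, median and highest) over the 12 Weaver libraries after ATRA. No Weaver library reached the lowest WT library, and the log2 difference was -0.92 ± 0.17 (adjusted p = 0.000209). It was the 1 member called lower in all 4 lines. Col5a3 was at 3.78, 3.33 and 2.36 CPM in WT and at 0.476, 1.69 and 2.37 CPM over the Weaver libraries, which overlap by a single K634E library (log2 difference -1.02 ± 0.19, adjusted p = 0.000244). Col13a1 was at 10.04, 7.66 and 6.73 CPM in WT and at 2.27, 4.49 and 7.35 CPM over the Weaver libraries, with overlap (log2 difference -0.83 ± 0.17, adjusted p = 0.00103). Col16a1, a fibril-associated chain, was at 0.648, 1.16 and 0.700 CPM in WT and at 0.0570, 0.367 and 0.547 CPM over the Weaver libraries. Its groups did not overlap (log2 difference -1.41 ± 0.35, adjusted p = 0.00432), but without ATRA WT replicate 2 the adjusted p was 0.105.

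The type VI chains Col6a1 and Col6a2 were lower by -1.18 ± 0.41 and -0.59 ± 0.16. Col6a2 was at 3.72, 4.65 and 2.62 CPM in WT and at 1.75, 2.29 and 3.10 CPM over the Weaver libraries, with overlap. Col6a5 was at 31.8 to 35.0 CPM in WT and at 30.8 to 37.2 CPM in the Weaver libraries (log2 difference 0.01 ± 0.06, adjusted p = 0.907). The fibrillar chains Col1a1, Col11a1 and Col5a1 were lower by -0.60 ± 0.20, -0.45 ± 0.13 and -0.44 ± 0.14. Col1a1 and Col5a1 were lowest in A677T, at 0.427 to 1.12 CPM and 2.99 to 4.27 CPM, while R679C, K634E and K563E overlapped WT for both. Several of these calls rested on single libraries among the 15 left out in turn. The call of Col6a1 was lost in 10 of 15 such fits (adjusted p up to 0.227), that of Col1a1 in 4 (without ATRA WT replicate 2 or 3 or A677T replicate 1 or 3, up to 0.185), that of Col5a1 in 2 (without ATRA WT replicate 1 or 2, up to 0.172), that of Col6a2 in 1 (without ATRA WT replicate 2, 0.189) and that of Col11a1 in 1 (without ATRA WT replicate 1, 0.161). Without ATRA WT replicate 2, 4 members were called in all.

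Some members went up in single Weaver lines after ATRA. Col1a2 was at 4.06, 3.93 and 2.12 CPM in K563E against 1.67, 1.77 and 1.40 CPM in WT (log2 difference 1.07 ± 0.25, adjusted p = 0.00299), without overlap. Col5a2 was at 1.92, 2.33 and 1.87 CPM in A677T against 1.24, 0.762 and 0.918 CPM in WT (log2 difference 1.09 ± 0.28, adjusted p = 0.00681), as it was higher in A677T mESC. The Spearman correlation of exon GC with the Weaver difference after ATRA was -0.35 over 10948 genes. With the GC trend taken out, 9 members were lower and 1 higher over the 4 lines, the 9 being the same members. Of all 17030 genes, 2448 were then lower and 1995 higher. Without the libraries that stood apart, 9 of 30 tested members were lower, beside 2110 lower and 1535 higher of 17437 genes. The summed fibroblast or feeder markers were 58.1 to 68.4 CPM for WT against 38.9 to 52.0 CPM for the Weaver libraries after ATRA, and the endoderm markers 389 to 440 CPM and 226 to 291 CPM. The chondrocyte or osteoblast markers summed to 24.3 to 30.5 CPM in WT and 14.2 to 25.6 CPM over the Weaver libraries. Neural crest markers were higher in every Weaver library, at 18.3 to 30.2 CPM beside 17.9 to 18.1 CPM in WT, with 3 of 6 tested called higher and none lower. Of the 8 neuroectoderm markers, 4 were called higher and none lower, with sums of 214 to 306 CPM beside 229 to 244 CPM, and the mesoderm sums overlapped (103 to 183 CPM beside 137 to 155 CPM). Their part was not tested.

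The difference between Weaver lines and WT was itself compared between the states over 29 members. The change of that difference passed for 2 members, 6.90% beside 7.07% of all genes, which is no more than the background. The differences of the type IX chains moved toward 0 after ATRA, by 1.42 ± 0.36 for Col9a3 (adjusted p = 0.00982) and by 1.20 ± 0.29 for Col9a2 (adjusted p = 0.00699). After ATRA Col9a2 was at 4.15, 4.65 and 3.63 CPM in WT and at 1.54, 3.43 and 6.68 CPM over the Weaver libraries, and Col9a3 at 1.51, 1.32 and 1.57 CPM and at 0.728, 1.31 and 2.20 CPM. Both overlapped. Without mESC WT replicate 3 neither change passed (1.28, adjusted p = 0.0640 for Col9a3 and 1.04, adjusted p = 0.0547 for Col9a2). Exon GC correlated with the change between states at 0.59 over 10885 genes, and both members still passed with the GC trend taken out. For the other members, a call in one state and not in the other is therefore not shown to be a difference between the states.

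**Figure D4:**
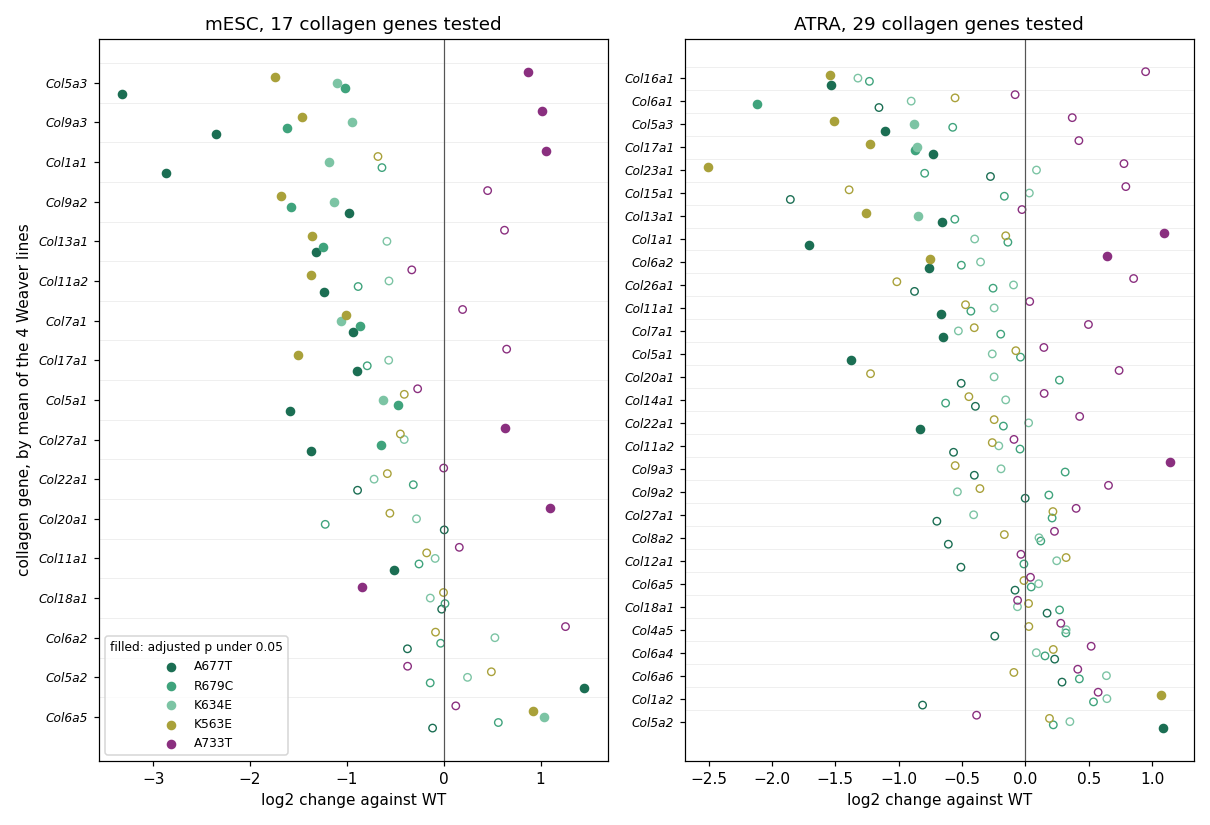
Log2 difference from WT of the 4 Weaver lines and A733T for the 17 collagen genes tested in mESC and the 29 tested after ATRA, with filled symbols where the adjusted p was under 0.05. In mESC, Col5a3, Col7a1, Col9a2 and Col9a3 lie below 0 in all 4 Weaver lines, and Col5a3 and Col9a3 lie above 0 in A733T.

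A733T mESC had more RNA of several of the same genes than WT. Of the 17 tested members, 5 were higher and 1 was lower (35.3% beside 19.3% of all genes), and the median log2 difference was 0.45 for the members and 0.03 over all genes. With the GC trend taken out, 8 were higher and 1 lower. The calls over all 15830 genes also rose with that correction, from 1686 higher and 1367 lower to 2098 higher and 1838 lower. Col5a3 was at 3.95, 3.11 and 3.72 CPM in A733T against 2.13, 1.96 and 1.88 CPM in WT (log2 difference 0.87 ± 0.22, adjusted p = 0.00625). Col9a3 was at 2.52, 1.87 and 2.27 CPM against 1.27, 0.811 and 1.27 CPM (1.02 ± 0.29, adjusted p = 0.0153). Both had all A733T libraries above all WT libraries. Col1a1, at 1.15, 1.58 and 1.03 CPM, was higher by 1.05 ± 0.33, Col20a1 by 1.10 ± 0.38 and Col27a1 by 0.63 ± 0.18, none with overlap. These calls depended on single libraries: 2 members were called without mESC WT replicate 2, and the call was lost in 4 of 6 fits for Col1a1 (every WT replicate and A733T replicate 2, adjusted p up to 0.119), 5 of 6 for Col20a1 (WT replicates 1 and 2 and every A733T replicate, up to 0.211), 3 of 6 for Col9a3 (WT replicate 2 and A733T replicates 1 and 3, up to 0.0806) and 1 of 6 for Col27a1 (WT replicate 2, 0.0610).

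Col18a1 went the other way. It was at 99.0, 125 and 111 CPM in A733T mESC against 213, 186 and 214 CPM in WT, and the log2 difference was -0.85 ± 0.18 (adjusted p = 0.003). Libraries of all other lines were at 140 CPM or more. After ATRA the A733T libraries were at 732, 695 and 673 CPM and overlapped WT, at 789, 750 and 646 CPM. The remaining members summed to 55.5 to 57.3 CPM in A733T mESC against 41.0 to 47.8 CPM in WT, so Col18a1 made up 66.3% of the collagen CPM in A733T and 82.2% in WT. In parental mESC the sum without Col18a1 was 47.5 to 52.3 CPM. After ATRA it was 122 to 125 CPM in A733T, 118 to 129 CPM in the parental line and 90.3 to 112 CPM in WT. A733T was not tested against the parental line. For Col5a3 in mESC, the parental libraries, given below beside het, overlapped those of A733T.

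After ATRA, 3 of 29 members were higher in A733T than in WT and none was lower (10.3% beside 17.7% of all genes), a share under the background. The median log2 difference was 0.41 for the members and 0.02 over all genes. Col1a1 was at 6.26, 3.77 and 4.74 CPM against 1.89, 2.53 and 2.36 CPM in WT (log2 difference 1.09 ± 0.23, adjusted p = 0.00128). Col9a3 was at 4.31, 2.92 and 2.64 CPM against 1.51, 1.32 and 1.57 CPM (1.14 ± 0.26, adjusted p = 0.00259). Col6a2 was at 5.71, 6.06 and 5.48 CPM against 3.72, 4.65 and 2.62 CPM (0.65 ± 0.19, adjusted p = 0.0153). For all 3 the A733T libraries lay above WT, and Col1a1 and Col9a3 were the 2 members higher in A733T in both states. The Col6a2 call was lost without ATRA WT replicate 3 or A733T replicate 2 (adjusted p up to 0.121). Endoderm markers summed to 215 to 241 CPM in A733T mESC against 194 to 210 CPM in WT, and fibroblast or feeder markers to 28.8 to 33.6 CPM against 18.2 to 21.1 CPM. Most of the endoderm sum in A733T came from Lama1 (116 CPM) and Lamb1 (103 CPM). Of 6 endoderm markers tested in mESC, 4 were called higher and none lower, with a median log2 difference of 0.97. The 8 mesoderm markers summed to 37.3 to 43.5 CPM in A733T mESC and 76.6 to 81.5 CPM in WT. The neuroectoderm sum was also lower in A733T mESC (203 to 227 CPM beside 245 to 268 CPM). Tubb3 (148 CPM beside 175 CPM in WT) and Olig2 (39.5 CPM beside 54.6 CPM) made up most of it, while Nes was higher (17.5 CPM beside 11.4 CPM). Of 6 neuroectoderm markers tested, 2 were called lower and 1 higher. The chondrocyte or osteoblast sum was higher (12.05 to 15.3 CPM beside 10.3 to 11.4 CPM), and the neural crest sum overlapped WT (25.7 to 32.2 CPM beside 27.3 to 34.5 CPM). After ATRA the A733T sums lay above WT for fibroblast or feeder (81.3 to 96.4 CPM beside 58.1 to 68.4 CPM), chondrocyte or osteoblast (33.0 to 35.3 CPM beside 24.3 to 30.5 CPM), neuroectoderm (256 to 274 CPM beside 229 to 244 CPM) and neural crest markers (19.8 to 22.8 CPM beside 17.9 to 18.1 CPM). They lay below WT for mesoderm markers (118 to 130 CPM beside 137 to 155 CPM), of which 2 of 7 tested were called lower and 1 higher. The sums overlapped WT for endoderm markers (432 to 480 CPM beside 389 to 440 CPM). Their part was not tested.

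Set directly against the mean of the 4 Weaver lines, A733T mESC had 12 of 17 members higher and 1 lower (76.5% beside 50.3% of all genes), and A733T after ATRA had 18 of 29 higher and 1 lower (65.5% beside 48.5%). This comparison was added after the other values had been seen. Its difference gives the WT libraries no weight, but they enter the filter, the scaling and the spread estimate of the fit. The largest differences in mESC were those of Col5a3 (2.67 ± 0.19, adjusted p = 4.3e-12), Col9a3 (2.61 ± 0.25) and Col1a1 (2.40 ± 0.28). After ATRA they were those of Col16a1 (2.36 ± 0.31), at 2.00, 1.35 and 1.63 CPM in A733T, Col1a1 (1.70 ± 0.18) and Col23a1 (1.65 ± 0.43). The lower members were Col18a1 in mESC (-0.81 ± 0.15) and Col5a2 after ATRA (-0.85 ± 0.26). The Col5a2 call was lost in 1 of 15 fits that left out a library (adjusted p = 0.1204).

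Few collagen genes were called for the loss of 1 Ezh2 allele or for the addition of wild-type EZH2. Het against parental gave 2 lower members of 17 in mESC (11.8% beside 3.44% of all genes) and 2 lower of 29 after ATRA (6.90% beside 6.25%). The members' median log2 difference was -0.13 in mESC and -0.29 after ATRA, beside 0.0034 and 0.0004 over all genes. Without Col18a1, the members summed to 45.1 to 45.9 CPM in het mESC and 47.5 to 52.3 CPM in the parental line. After ATRA these sums were 94.5 to 105 CPM and 118 to 129 CPM, and the lines overlapped in neither state. In mESC, Col5a3 was at 2.01, 1.82 and 1.82 CPM in het against 4.68, 3.48 and 2.90 CPM in the parental line (log2 difference -0.98 ± 0.22, adjusted p = 0.00828), without overlap. Col5a2 was at 0.0530, 0.0492 and 0 CPM in het against 0.430, 0.328 and 0.167 CPM (adjusted p = 0.019). This was 2 counts over the 3 het libraries and 17 over the parental ones, a parental-to-het ratio of 9.78 (95% interval 2.32 to 87.3, counting error only). After ATRA, Col1a1 (-0.84 ± 0.25, adjusted p = 0.0379) and Col6a5 (-0.29 ± 0.08, adjusted p = 0.024) were lower in het. The 4 calls depended on single libraries, and that of Col1a1 was lost in 6 of 6 fits that left out a library, those of Col5a2 and Col6a5 in 4 of 6 and that of Col5a3 in 1 of 6.

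WT against het gave 1 higher and 1 lower of 17 in mESC (11.8% beside 12.1% of all genes) and 2 higher and 1 lower of 29 after ATRA (10.3% beside 16.4%), shares near or under the background. Col5a2 was at 0.355, 0.286 and 0.332 CPM in WT mESC, above the het libraries, a ratio of 10.1 (95% interval 2.43 to 89.1, adjusted p = 0.0065). Col20a1, a fibril-associated chain, was at 0.203, 0.668 and 1.11 CPM in WT mESC against 1.22, 1.82 and 1.91 CPM in het (-1.34 ± 0.37, adjusted p = 0.0158) and at 0.324, 0.682 and 0.481 CPM against 1.31, 0.849 and 1.84 CPM after ATRA (-1.36 ± 0.42, adjusted p = 0.0247). It was lower in WT in both states without overlap. After ATRA, Col1a2 was at 1.67, 1.77 and 1.40 CPM in WT against 0.684, 0.467 and 0.746 CPM in het (1.35 ± 0.30, adjusted p = 0.00244), and Col27a1 was higher by 0.85 ± 0.26. Calls were lost in 4 of 6 fits that left out a library for Col20a1 and Col27a1 after ATRA, in 3 of 6 for Col20a1 in mESC and in 1 of 6 for Col5a2.

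Genes that make, export and bind collagen were followed as 7 lists of 69 genes. In mESC, 25 of 51 tested were lower and 5 higher in the Weaver lines (44.4% of all genes were called), and after ATRA 26 of 59 were lower and 3 higher (20.5% of all genes). Lowered genes in mESC included P4ha2 (-0.90 ± 0.10), a prolyl hydroxylase subunit, Serpinh1 (-0.47 ± 0.09), the collagen chaperone HSP47, and Loxl3 (-1.11 ± 0.33), a crosslinking enzyme. The lists were not uniform, since Itga1, a collagen-binding integrin chain, was higher by 2.02 ± 0.33 in mESC. After ATRA the collagen receptor gene Ddr2 was lower by -2.28 ± 0.46, and 9 of 10 tested collagen-binding matrix genes were lower. In A733T, Serpinh1 was higher than in WT by 0.68 ± 0.12 in mESC and 0.49 ± 0.11 after ATRA. Over the lists 9 of 51 were higher and 2 lower in A733T mESC, where 10.7% of all genes were higher and 8.64% lower. After ATRA 14 of 59 were higher and 0 lower in A733T, where 10.4% of all genes were higher and 7.33% lower. With ATRA in WT, 31 of 59 were higher and 15 lower, beside 59.0% of all genes called. Serpinh1 rose by 1.59 ± 0.13, while the procollagen proteinase enhancers Pcolce and Pcolce2 fell by 3.08 ± 0.11 and 3.46 ± 0.09 on the log2 scale.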

How the data were processed

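RNA was poly(A)-selected, primed with random hexamers and its second strand made with dTTP, per the labels' protocols, so strand is not marked. The authors deposited raw read counts per gene. The submitters' processing notes name the build mm10 and the tools DESeq2 1.38.3, featureCounts 1.6.4, STAR 2.7.3a and cutadapt 3.2, with no order. No annotation release or strand setting is given there. Of 55401 gene identifiers, 55141 were found in GENCODE M21 (54349 with the same version). Columns for 6 libraries matched no label and were not used, so the Y728 line is not analysed here, and the Weaver mean, planned over 5 lines, was taken over 4.

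Counts were filtered with filterByExpr, TMM-normalized and tested in edgeR 4.0.16 (R 4.3.3) with robust quasi-likelihood fits over all lines of a state (24 libraries, 16 residual degrees of freedom), or over all 48 for changes between states. A call is a Benjamini-Hochberg adjusted p under 0.05 over all genes tested, in 27 comparisons. CPM are TMM-scaled, and exon lengths, exon GC and chains' neighbours come from GENCODE M21. Alternatives were RLE scaling, DESeq2 1.42.0, no filter, a GC correction by a spline, the replicate number as a block and leaving out each library. The fit was checked on simulated counts. Intervals are exact and cover counting error only. Replicate pairs of 1 group all differed by more than counting noise (chi-square per degree of freedom 2.81 to 39.5).

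Members and lists were chosen with earlier results of these data known. Named were members called in a comparison, with library values where a compared group reached about 1 CPM, and otherwise those a statement needed. The comparison of A733T with the Weaver mean and the fits without the libraries that stood apart were added after the data were seen.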

Additional observations from a re-analysis of the deposited data

Results flagged for a closer look

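The differences between the Weaver lines and WT moved between mESC and ATRA by 1.42 for Col9a3 and by 1.20 for Col9a2 on the log2 scale, in a test of that change itself. Neither passed without mESC WT replicate 3, and the share of members called (6.90%) was no more than that of all genes (7.07%). In mESC, A733T and the Weaver lines lay on opposite sides of WT, with both comparisons called, for 4 members, and A733T minus the Weaver mean was 2.61 for Col9a3, 1.35 for Col27a1, 2.67 for Col5a3 and 2.40 for Col1a1. After ATRA both comparisons were called in opposite directions for Col6a2, with 1.24, and for Col1a1, with 1.70. Other members had opposite signs without both calls. Both comparisons share the WT libraries. In mESC the A733T call was lost in 4 of 6 fits that left out a library for Col1a1, 3 of 6 for Col9a3, 1 of 6 for Col27a1 and 0 of 6 for Col5a3. After ATRA the Col6a2 call was lost in 2 of 6 fits for A733T and 1 of 15 for the Weaver mean. That of Col1a1 was lost in 0 of 6 and 4 of 15. The differences of A733T from the Weaver mean were each tested in a comparison added after the data were seen.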

How the results depend on the processing

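Of 95 called gene results, 82 kept their call under every setting other than leaving out a library, 60 kept it in every fit without 1 library, and none of the 95 reversed. Counts of called members stayed within 1.5 times under every setting for 4 of 12 comparisons. DESeq2 called 1 member, against 2 in the full edgeR fit, for WT against het and het against parental in mESC and for het against parental after ATRA. For A733T against WT after ATRA, with 3 members called in the full data, 5 were called with no filter and 5 without the libraries that stood apart. For WT against het after ATRA, also with 3, 5 were called with no filter and 5 with the GC correction. Fits without 1 library gave 9 to 11 members for the Weaver mean in mESC and 4 to 10 after ATRA, 2 to 5 for A733T against WT in mESC and 2 to 3 after ATRA, 0 to 2 for WT against het and for het against parental in mESC, 1 to 5 and 0 to 1 for these after ATRA, 11 to 14 and 16 to 19 for A733T against the Weaver mean, 21 to 26 for ATRA against mESC in WT and 0 to 3 for the change between states. The cause was not tested. Of values with no call, Col18a1 turned to 0.30 in mESC with the GC correction, alone or with the block, and A733T against WT for Col18a1 after ATRA ranged from -0.13 to 0.0015 in fits without 1 library (0.0015 without ATRA WT replicate 1). Genes under about 1 CPM are limited by their counts.

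The labels tie replicate numbers to no shared batch, so the numbers were not treated as pairs. Of the same-numbered pairs, 39 of 84 in mESC and 56 of 84 after ATRA correlated above 0.1. A shared batch need not lift every pair, so this count cannot decide whether there was one. Same-numbered libraries of different lines correlated by 0.08 on average in mESC and 0.21 after ATRA, beside -0.04 and -0.10 for other numbers. The values correlated were deviations from each group's mean, which makes the second pair negative whenever the first is positive, so it is no separate evidence. Libraries closest to their own number were 15 of 24 in mESC and 18 of 24 after ATRA, a hint from the data and not the design. With the replicate block after ATRA, 5 members were called for A733T against WT and 5 for WT against het, and the block with the GC correction gave 5, 6 and, for het against parental, 4. The block left 10 called members for the Weaver mean in mESC.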
